A study of Mus musculus with 8 samples.

Results

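The MHC class II genes of activated B cells were followed through 10 genes taken by name from the 53242 genes of the tables: the classical chain genes H2-Aa, H2-Ab1 and H2-Eb1, the peptide editor genes H2-DMa, H2-DMb1 and H2-DMb2, the editor's inhibitor genes H2-Oa and H2-Ob, the invariant chain gene Cd74 and the coactivator gene Ciita. All 10 were found, and all 10 had enough counts to be tested. Splenic B cells of C57BL/6 mice aged 8 to 12 weeks were kept for 24 h in 40 ng/ml IL4 together with irradiated CD40LB cells, a feeder line that presents CD40 ligand. The feeders were removed with an antibody and magnetic beads, and the RNA was sequenced to ask how the transcriptome depended on EIF4A1, the RNA helicase of the translation initiation complex EIF4F. Control B cells were Eif4a1+/+ CD23-cre and 4A1 KO B cells were Eif4a1fl/fl CD23-cre, so both genotypes carried the Cre transgene. CD23-cre acts from the immature B cell stage in the spleen, so deletion was not confined to the 24 h of culture, and the loxP sites flank only some exons of Eif4a1, so that counts over the whole gene include exons outside the deletion. Each genotype had 4 libraries, numbered 1 to 4, of which 1 and 3 came from males and 2 and 4 from females, and 1 and 2 formed batch A and 3 and 4 batch B. The study left replicate 1 of both genotypes out of its comparison of gene expression for reduced viability. Comparisons are therefore between replicates 2 to 4 (n = 3 per genotype) unless all 8 libraries are named.

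MHC class II molecules present peptides from endosomes to CD4+ T cells, and B cells depend on them to obtain T cell help. An alpha and a beta chain pair in the endoplasmic reticulum with the invariant chain, CD74, which blocks the groove and steers the complex to endosomes. There cathepsins trim the invariant chain to a fragment named CLIP, H2-DM exchanges CLIP for antigenic peptides, and H2-O, a heterodimer found mainly in B cells, restrains H2-DM. Transcription of these genes depends on the coactivator CIITA, which does not bind DNA itself but is recruited by RFX, CREB and NF-Y bound to the X and Y boxes in front of each gene. The ubiquitin ligase MARCH1 removes mature class II molecules from the cell surface, and CD83 opposes it.

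Upstream sequences are given for the members with a matched promoter, so that the X and Y box region can be read in those that were higher, lower or not detectably different. RefSeq promoter windows of GRCm38.p6, from 250 bases before to 50 bases after an annotated start, were matched by symbol for 7 of the 10 members, and there were none for H2-Ab1, Cd74 and Ciita. The letters CCAAT, which NF-Y binds, were sought on both strands and were present in a window of all 7 (7 of 8 windows), against 37.4% of all 32851 windows. The letters AGNNACNGA, a core of the X box, were sought likewise and were present for 4 members (H2-DMb1, H2-Eb1, H2-Oa and H2-Ob, 4 of 8 windows) against 17.7% of all windows. GNAAC followed by 20 to 30 bases and then by ATTGG, the reverse complement of CCAAT, was sought after the sequences had been read. It was present for 5 members (H2-Aa, H2-DMb1, H2-Eb1, H2-Oa and H2-Ob), in 5 of their 8 windows, and in 1.91% of all windows. Because the arrangement was drawn from these same sequences, the difference between these shares was fixed in advance and shows no enrichment. The gap was 28 bases in H2-Aa, H2-DMb1 and H2-Oa, 27 in H2-Eb1 and 25 in H2-Ob. This arrangement overlaps AGNNACNGA in H2-DMb1 and H2-Eb1, whereas in H2-Oa and H2-Ob the latter letters lie elsewhere in the window. In H2-DMb2 only CCAAT was found of these letters. Only exact letters were sought, so attaaccga in H2-DMb2, which differs from AGNNACNGA by 1 base, was not counted. A missing match therefore does not show that an X box is missing. In the 2 windows of H2-DMa the only match was CCAAT in 1 of them, at bases -198 to -194. That lies outside the stretch printed below, so neither H2-DMa sequence holds capitals. The sequences run 5′ to 3′ on the strand of the gene from base -130 to base -31, with base -1 next to the annotated start, and capitals mark GNAAC of the arrangement and every CCAAT or ATTGG.
H2-Oa (chr17:34092249-34092348, plus strand): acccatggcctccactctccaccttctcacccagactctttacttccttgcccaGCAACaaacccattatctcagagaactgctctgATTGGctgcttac
H2-Ob (chr17:34238775-34238874, plus strand): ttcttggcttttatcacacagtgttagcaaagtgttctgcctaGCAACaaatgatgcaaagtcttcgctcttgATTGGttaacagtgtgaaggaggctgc
H2-DMb1 (chr17:34153061-34153160, plus strand): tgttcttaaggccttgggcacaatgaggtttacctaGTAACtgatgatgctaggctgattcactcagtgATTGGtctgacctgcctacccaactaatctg
H2-Eb1 (chr17:34305737-34305836, plus strand): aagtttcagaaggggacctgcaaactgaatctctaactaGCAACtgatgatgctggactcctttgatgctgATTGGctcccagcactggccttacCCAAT
H2-Aa (chr17:34287854-34287953, minus strand): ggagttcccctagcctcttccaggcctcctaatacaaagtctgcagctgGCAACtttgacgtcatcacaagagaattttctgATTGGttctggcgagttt
H2-DMb2 (chr17:34145119-34145218, plus strand): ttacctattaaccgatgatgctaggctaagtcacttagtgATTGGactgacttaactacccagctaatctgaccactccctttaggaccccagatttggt
H2-DMa (chr17:34122702-34122801, plus strand): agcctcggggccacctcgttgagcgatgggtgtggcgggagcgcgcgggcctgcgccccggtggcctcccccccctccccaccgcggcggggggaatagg
H2-DMa (chr17:34125388-34125487, plus strand): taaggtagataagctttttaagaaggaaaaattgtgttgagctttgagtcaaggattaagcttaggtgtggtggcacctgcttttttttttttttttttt
H2-Oa and H2-Ob, whose RNA moved apart between the genotypes, both carry the arrangement.

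The 6 libraries compared held 38488341 to 43210858 counts each, control 1 held 39890141 and 4A1 KO 1 held 31727557. The targeted gene, Eif4a1, had 748 to 939 CPM (a gene's counts scaled to the library's normalised total) in the 4 control and 556 to 689 CPM in the 4 4A1 KO libraries (log2 fold change -0.44, standard error 0.0497, adjusted p = 0.000115, edgeR). The p-values named edgeR come from its quasi-likelihood test and carry the Benjamini-Hochberg adjustment over all genes tested. Of 8 B cell markers, Ms4a1 had 517 to 652 CPM, and the 8 summed to 5394 to 6822 CPM in control and 5987 to 6781 CPM in 4A1 KO libraries. Most of that sum was Fcer2a, at 3060 to 4530 CPM, which was higher in 4A1 KO cells. The sum therefore does not show that 4 of the 8 markers were called as decreased, against 13.7% of all genes. Ncr1, Klrb1c and Gzma of NK cells and S100a8, S100a9, Ly6g and Mpo of neutrophils had no count in any library. In bulk RNA, fewer cells of a type and less RNA per cell cannot be told apart.

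Cd74 and the classical chain genes were among the most abundant genes of these cells, while H2-DMb1, Ciita, H2-Oa and H2-Ob ranked from 1186 to 4457 in control cells. In TPM, which are per transcript length and can be compared between genes, Cd74 had 8201 ± 1209 (SD, n = 3) in control B cells and 9387 ± 1391 in 4A1 KO B cells, and ranked 3 and 2 among all genes. H2-Ab1 had 2820 ± 618 and 3183 ± 660 TPM and H2-Aa 2769 ± 627 and 3255 ± 552 TPM, so that the levels of these partners did not differ beyond their spread in either genotype. H2-Eb1 followed with 1883 ± 437 and 2117 ± 356 TPM. The editor genes stood a step lower. H2-DMb2 had 524 ± 52.7 TPM in control and 524 ± 55.5 TPM in 4A1 KO cells, H2-DMa 514 ± 45.7 and 417 ± 12.1 TPM, and H2-DMb1 158 ± 17.6 and 162 ± 19.5 TPM. The order of H2-DMb2 and H2-DMa was within their spread in control cells, while every 4A1 KO library had more H2-DMb2 than H2-DMa. At the bottom were Ciita (74.1 ± 9.09 and 67.6 ± 3.36 TPM), H2-Oa (61.0 ± 23.5 and 39.2 ± 12.97 TPM) and H2-Ob (36.9 ± 8.27 and 43.5 ± 11.3 TPM). Among replicates 2 to 4 the values of Ciita lay above all those of H2-Ob in control cells and above all those of both H2-O genes in 4A1 KO cells. The ranges of H2-Oa and H2-Ob overlapped in both genotypes, although within each control library H2-Oa was the higher. The 10 genes together made up 1.71% ± 0.303 of all TPM in control and 1.92% ± 0.306 in 4A1 KO B cells, and Cd74 alone made up 46.7% to 49.5% of that sum across the 8 libraries.

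**Figure D1:**
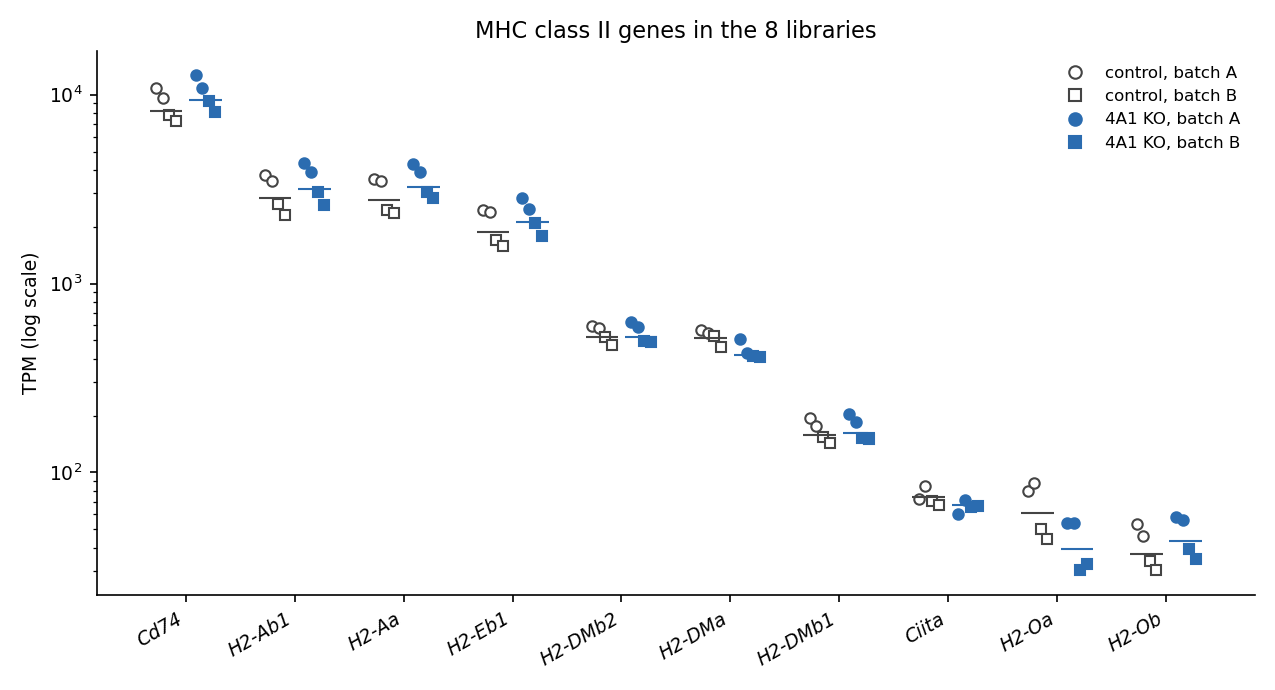
TPM of the 10 MHC class II genes (logarithmic axis) in each of the 8 libraries, by genotype and batch, with replicates 1 to 4 from left to right and a line at the mean of replicates 2 to 4. Cd74 was at 7241 to 12631 TPM and H2-Ob at 30.5 to 58.2 TPM, and for most genes the batch A libraries lie above the batch B libraries of the same genotype.

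Class II RNA differed by small amounts between the genotypes, upwards for some genes and downwards for others. The study's thresholds, an adjusted p below 0.05 with a log2 fold change beyond 0.5 in either direction, were used to call a gene, and 25.3% of the 14218 genes tested reached them, 13.7% as decreased and 11.6% as increased. Of the 10 members, 1 was called, H2-Oa, which was decreased. DESeq2, which called 18.1% of 14348 genes, also called 1 member. The call was lost with glmTreat, which tests against the fold threshold itself (adjusted p = 0.391), and without the replicate block, that is without batch and sex (adjusted p = 0.162, edgeR). With the fold threshold set aside, 53.0% of all genes passed, 26.3% as higher and 26.7% as lower. By the adjusted p alone 5 members were higher in 4A1 KO B cells (H2-Aa, H2-Ab1, H2-Eb1, Cd74 and H2-Ob), 2 were lower (H2-Oa and H2-DMa) and 3 did not pass (H2-DMb1, H2-DMb2 and Ciita). Without the replicate block none of the 5 higher members passed (adjusted p = 0.313 to 0.505, edgeR). H2-Eb1 did not pass without replicate 3 (adjusted p = 0.053, edgeR), nor H2-Ob without replicate 2 (adjusted p = 0.0991, edgeR). The median log2 fold change was 0.12 over the members and 0.0066 over all genes tested. In 8 members the 4 same-numbered pairs of libraries all moved the same way, as in 67.1% of all genes.

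**Figure D2:**
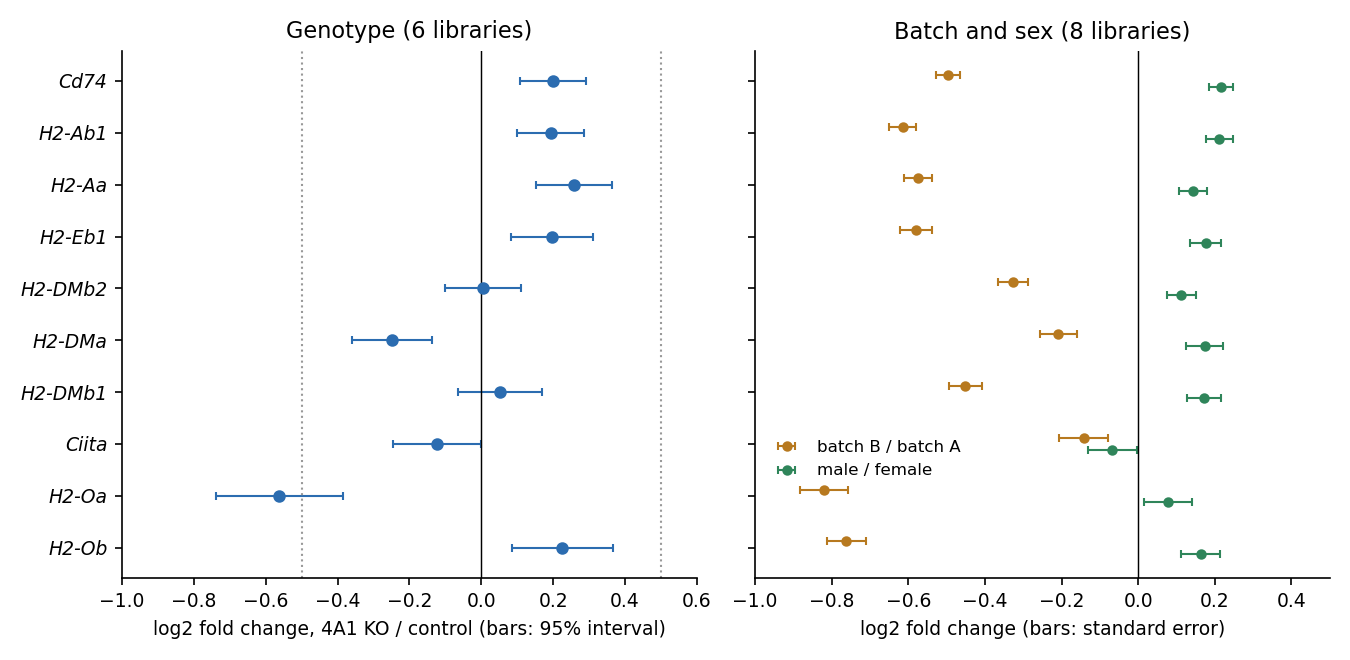
Left, log2 fold change of each MHC class II gene in 4A1 KO against control B cells from edgeR (replicates 2 to 4, bars are 95% intervals, dotted lines at -0.5 and 0.5), and right, the log2 fold changes for batch B against batch A and for male against female in all 8 libraries (bars are standard errors). H2-Oa at -0.56 is the one gene past a dotted line, and for batch all 10 genes lie below 0, from -0.82 to -0.14.

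The classical chains and the invariant chain were slightly higher in 4A1 KO B cells. H2-Aa, the alpha chain of I-A, had 2147, 1504 and 1398 CPM in control 2, 3 and 4 and 2410, 1896 and 1692 CPM in 4A1 KO 2, 3 and 4, with 2269 CPM in control 1 and 2821 CPM in 4A1 KO 1. Each 4A1 KO library was above the control library of the same number, but the genotypes overlapped because batch A was higher than batch B in both. The log2 fold change was 0.26 (standard error 0.0468, 95% interval 0.15 to 0.36, adjusted p = 0.00162, edgeR). H2-Ab1, the beta chain of I-A, had 2108, 1562 and 1307 CPM in control 2, 3 and 4 and 2348, 1814 and 1509 CPM in the 4A1 KO libraries of those numbers, and 2281 and 2721 CPM in replicate 1. It was again higher in 4A1 KO in 4 of 4 pairs, by 0.19 on the log2 scale (standard error 0.0415, adjusted p = 0.00411, edgeR). The genotypes overlapped, also within batch B, where 4A1 KO 4 lay below control 3. H2-Eb1, the beta chain of I-E, had 1583, 1114 and 991 CPM in control 2, 3 and 4 and 1680, 1365 and 1148 CPM in 4A1 KO 2, 3 and 4, and 1663 and 1950 CPM in replicate 1. It was higher in 4 of 4 pairs, by 0.09 on the log2 scale in replicate 2 and by 0.29 in replicate 3 (log2 fold change 0.20, standard error 0.0499, adjusted p = 0.00928, edgeR). Its alpha partner H2-Ea, which C57BL/6 mice cannot make because of a promoter deletion, had 0 to 9 counts per library and was too low to test.

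Cd74, whose protein is the chaperone of these chains, had 6894, 5593 and 4999 CPM in control 2, 3 and 4 and 7857, 6572 and 5664 CPM in 4A1 KO 2, 3 and 4, and 7958 and 9541 CPM in replicate 1. It was higher in 4 of 4 pairs, by 0.20 on the log2 scale (standard error 0.0405, 95% interval 0.11 to 0.29, adjusted p = 0.00295, edgeR), inside the range of the classical chains. Tested on TPM instead (limma on log2(TPM + 1)), where 11.7% of 12976 genes passed both thresholds as decreased, H2-Oa was the 1 member that did and none did as increased, the differences were 0.24 for H2-Aa (adjusted p = 0.0357), 0.19 for Cd74 (adjusted p = 0.0493), 0.18 for H2-Ab1 (adjusted p = 0.0614) and 0.18 for H2-Eb1 (adjusted p = 0.0996). The exact permutation test on the TPM of all 8 libraries, which ignores batch, gave two-sided p-values from 0.314 to 0.457 for these 4 genes, whose 8 libraries overlapped, whereas the TPM of 35.6% of all genes did not overlap between the genotypes.

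Dendritic cells and macrophages also express class II genes, and some of their markers differed between the genotypes, in both directions. Of the 8 dendritic cell markers 4 could be tested, and 2 were called as increased and 1 as decreased. Of the 8 macrophage or monocyte markers 2 could be tested, and 1 was called as increased. Over all genes tested 11.6% were called as increased and 13.7% as decreased. The 8 dendritic cell markers summed to 21.8 to 28.8 CPM in control and 28.5 to 44.3 CPM in 4A1 KO libraries. Most of that sum was Zbtb46, a transcription factor of conventional dendritic cells, at 16.5 to 26.5 CPM in control and 25.8 to 42.3 CPM in 4A1 KO libraries, which rose with Cd209a (log2 fold changes 0.68 and 1.72, adjusted p = 6.79e-05 and 0.00808, edgeR), while the cytokine receptor gene Flt3 fell (-1.89, adjusted p = 0.000234, edgeR), with 9.97 CPM in control 2 and 1.76 to 3.01 CPM in the other control libraries. Cd209a had only 2 to 30 counts per library. Itgax did not pass (adjusted p = 0.184, edgeR), and Xcr1, too low to test, was lower in 4 of 4 pairs. Clec9a of cross-presenting dendritic cells was at 0 in all libraries and Siglech of plasmacytoid dendritic cells at 10 counts or fewer. The 8 macrophage or monocyte markers summed to 3.86 to 7.87 CPM in control and 7.28 to 8.87 CPM in 4A1 KO libraries, of which Adgre1 rose by 0.62 on the log2 scale (adjusted p = 0.00687, edgeR), and Cd14, C1qa and Mertk were at 10 counts or fewer. Lyz2 did not pass (adjusted p = 0.211, edgeR). H2-Aa alone had 1398 to 2821 CPM over the 8 libraries. The markers' part in the difference was not tested.

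The genes of the peptide editor H2-DM did not move together. H2-DMa, the alpha chain, had 426, 434 and 381 CPM in control 2, 3 and 4 and 365, 341 and 338 CPM in 4A1 KO 2, 3 and 4, and 492 and 445 CPM in replicate 1. Among replicates 2 to 4 the highest 4A1 KO value lay under the lowest control value, and 4A1 KO 1 lay among the control values. The log2 fold change was -0.25 (standard error 0.0491, 95% interval -0.36 to -0.14, adjusted p = 0.00264, edgeR), and the difference of log2(TPM + 1) was -0.30 (adjusted p = 0.023, limma). H2-DMb1 had 97.0, 81.7 and 71.5 CPM in control and 101, 81.6 and 76.6 CPM in 4A1 KO replicates 2, 3 and 4. H2-DMb2 had 403, 360 and 317 CPM in control and 412, 342 and 330 CPM in 4A1 KO replicates 2, 3 and 4. For neither beta chain gene was a difference detected (log2 fold change 0.05, 95% interval -0.06 to 0.17, adjusted p = 0.419, and 0.01, 95% interval -0.10 to 0.11, adjusted p = 0.934, edgeR). Their transcripts are close copies, with 94.6% identity over 1170 aligned bases and 22.7% of the 50-base words of H2-DMb1 also in H2-DMb2, so some reads may have been assigned to the wrong gene of the pair. How reads with several matches were counted is not given in the sources used here.

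The genes of H2-O, the inhibitor of H2-DM, went in opposite directions, and H2-Oa had the largest difference of the 10 members. H2-Oa, the alpha chain, had 52.1, 33.2 and 27.7 CPM in control 2, 3 and 4 and 35.8, 19.97 and 20.8 CPM in 4A1 KO 2, 3 and 4, and 53.5 and 37.5 CPM in replicate 1. Every 4A1 KO library was below both control libraries of its own batch, and the genotypes overlapped only across batches. H2-Oa fell by 0.56 on the log2 scale (standard error 0.0784, 95% interval -0.74 to -0.38, adjusted p = 0.000389, edgeR), a 1.476-fold decrease that took it from rank 3036 to rank 4197 among all genes in TPM. The decrease was 0.54, 0.73 and 0.41 in the pairs of replicates 2, 3 and 4 and 0.51 in replicate 1, and without replicate 3 the log2 fold change was -0.47 (adjusted p = 0.00172, edgeR), which is under the fold threshold. The difference of log2(TPM + 1) was -0.61 (standard error 0.082, adjusted p = 0.00648, limma), and the exact permutation p over 8 libraries, with no account of batch, was 0.171. H2-Ob, the beta chain, went the other way. It had 52.2, 36.3 and 30.4 CPM in control 2, 3 and 4 and 63.7, 40.0 and 36.1 CPM in 4A1 KO 2, 3 and 4, and 59.5 and 66.5 CPM in replicate 1. It was higher in 4 of 4 pairs, by 0.23 on the log2 scale (standard error 0.062, 95% interval 0.08 to 0.37, adjusted p = 0.0137, edgeR). Neither H2-O gene shared a 50-base word with any other annotated transcript.

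Ciita, the coactivator on which transcription of the class II genes depends, had 253, 210 and 194 CPM in control 2, 3 and 4 and 215, 194 and 192 CPM in 4A1 KO 2, 3 and 4, and 223 and 185 CPM in replicate 1. It was lower in 4 of 4 pairs, by 0.27 on the log2 scale in replicate 1 and by 0.01 in replicate 4. The difference did not pass the test (log2 fold change -0.12, standard error 0.0541, adjusted p = 0.0856, edgeR), and in all 8 libraries the log2 fold change was -0.16 (adjusted p = 0.0535, edgeR). It passed in 2 of 13 fits, without replicate 4 (-0.18, adjusted p = 0.0199, edgeR) and with DESeq2 on all 8 libraries (adjusted p = 0.047), and was -0.07 without replicate 2. Over the 8 libraries Pearson's r of log2 CPM between Ciita and the other members ran from 0.098 for Cd74 to 0.734 for H2-Oa, and between Cd74 and H2-Ab1 it was 0.987. These correlations describe libraries that share batch, sex and genotype, and are given without a test.

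Partner chains form heterodimers, and their ratio was taken within each library, where depth cancels. The ratio of H2-Oa to H2-Ob in TPM was 1.90, 1.482 and 1.46 in control 2, 3 and 4 and 1.49 in control 1. It was 0.962, 0.776 and 0.946 in 4A1 KO 2, 3 and 4 and 0.929 in 4A1 KO 1. Control B cells had more H2-Oa than H2-Ob in 4 of 4 libraries, and 4A1 KO B cells had less in 4 of 4. The mean log2 ratio was lower by 0.85 in 4A1 KO cells (control 0.68 ± 0.213, 4A1 KO -0.17 ± 0.173, SD, n = 3). The ratio of H2-DMa to the sum of H2-DMb1 and H2-DMb2 was 0.728, 0.784 and 0.751 in control 2, 3 and 4 and 0.558, 0.641 and 0.637 in 4A1 KO 2, 3 and 4, with 0.719 and 0.614 in replicate 1. This ratio was also lower in every 4A1 KO library than in every control library. The ratio of H2-Aa to H2-Ab1 overlapped between genotypes (0.982 ± 0.0477 in control and 1.03 ± 0.0537 in 4A1 KO), as did that of Cd74 to the sum of H2-Aa and H2-Ab1 (1.482 ± 0.101 and 1.47 ± 0.0595). The ratio of the inhibitor sum to the editor sum, (H2-Oa + H2-Ob) / (H2-DMa + H2-DMb1 + H2-DMb2) was 0.0809 ± 0.0189 in control and 0.0742 ± 0.0152 in 4A1 KO. It overlapped between the genotypes and was lower in 4A1 KO in 4 of 4 same-numbered pairs (differences from -0.0134 to -0.00425). In both H2-O and H2-DM it was thus the alpha chain RNA that was lower relative to its beta partner. The H2-Aa to H2-Ab1 ratio was higher in 4A1 KO in 4 of 4 same-numbered pairs, by 7.8e-05 in replicate 2 and by 0.0465 to 0.0703 in the others. These ratios were not tested, since the members were chosen with results of these data known.

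**Figure D3:**
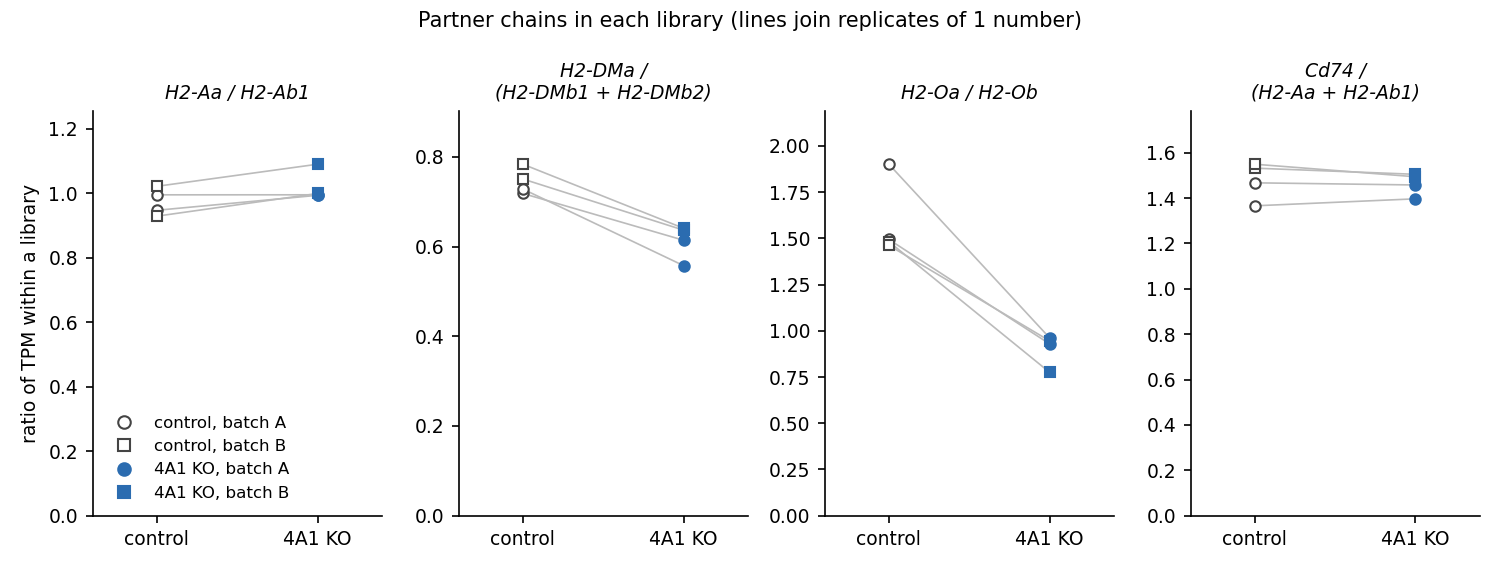
Ratio of the TPM of partner chains within each library, for control and 4A1 KO B cells, with lines joining libraries of the same number and all axes starting at 0. The H2-Oa to H2-Ob ratio lies between 1.46 and 1.90 in control and between 0.776 and 0.962 in 4A1 KO libraries, and the ratio of H2-DMa to its beta chains is separated as well, while the other 2 ratios overlap.

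The batches differed more than the genotypes for most of these genes. In all 8 libraries 9 of the 10 members were lower in batch B than in batch A at an adjusted p under 0.05 (edgeR), a threshold that 28.2% of all genes reached in either direction. The log2 fold change for batch was -0.82 for H2-Oa and -0.76 for H2-Ob, between -0.61 and -0.50 for H2-Ab1, H2-Eb1, H2-Aa and Cd74, and -0.21 for H2-DMa, and Ciita did not pass (-0.14, adjusted p = 0.122, edgeR). The labels name the batches only by letter. All 8 libraries include replicate 1, the males of batch A, which the study left out for reduced viability. Differences by batch and by sex can therefore not be fully told apart from viability. Males were higher than females at an adjusted p under 0.05 for 5 members (H2-Aa, H2-Ab1, H2-Eb1, H2-DMb1 and Cd74), by 0.14 to 0.22 on the log2 scale, against 6.88% of all genes in either direction. No difference of the genotype effect by sex or by batch was detected for any member. No interaction term reached an adjusted p of 0.05 or an unadjusted p of 0.05 (edgeR, smallest unadjusted p 0.178 for sex and 0.159 for batch), and among all genes tested 0.0% and 0.00704% did at an adjusted p under 0.05, and 2.85% and 4.29% at an unadjusted p under 0.05.

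The class II interval was not shifted as a block. H2-Oa to H2-Eb1 occupy chromosome 17 from 34311314 to 34535648 (GRCm39, 224 kb), where the tables hold 20 genes, 8 of them members, with H2-Oa at 34311314 to 34314328, H2-DMa at 34338515 to 34358958, H2-DMb2 at 34362197 to 34370529, H2-DMb1 at 34372046 to 34379204, H2-Ob at 34457836 to 34473388, H2-Ab1 at 34476663 to 34488393, H2-Aa at 34493404 to 34506798 on the minus strand and H2-Eb1 at 34504236 to 34535648. Ciita lies on chromosome 16 from 10297923 to 10347694 and Cd74 on chromosome 18. Of the 12 other genes in the interval, 6 were tested. The immunoproteasome genes Psmb9 and Psmb8, which lie between H2-DMb1 and H2-Ob, fell by 0.73 and 0.64 on the log2 scale (adjusted p = 0.000155 and 4.47e-05, edgeR). The peptide transporter genes Tap1 and Tap2 beside them (-0.03, adjusted p = 0.697, and -0.10, adjusted p = 0.141, edgeR), the bromodomain gene Brd2 (0.06, adjusted p = 0.302, edgeR) and Gm20513, a long noncoding RNA antisense to H2-Eb1 (-0.29, standard error 0.39, adjusted p = 0.554, edgeR), did not pass. Genes that were lower, higher and not detectably different therefore lay side by side, with the class II genes of the H2-Ob to H2-Eb1 end all at 0.19 to 0.26. H2-Eb2, a further beta chain gene just beyond H2-Eb1, had a log2 fold change of 0.22 (adjusted p = 0.0298, edgeR) and passed in 7 of 13 fits. The spans of H2-Aa and H2-Eb1 overlap on opposite strands, and counting used strand.

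**Figure D4:**
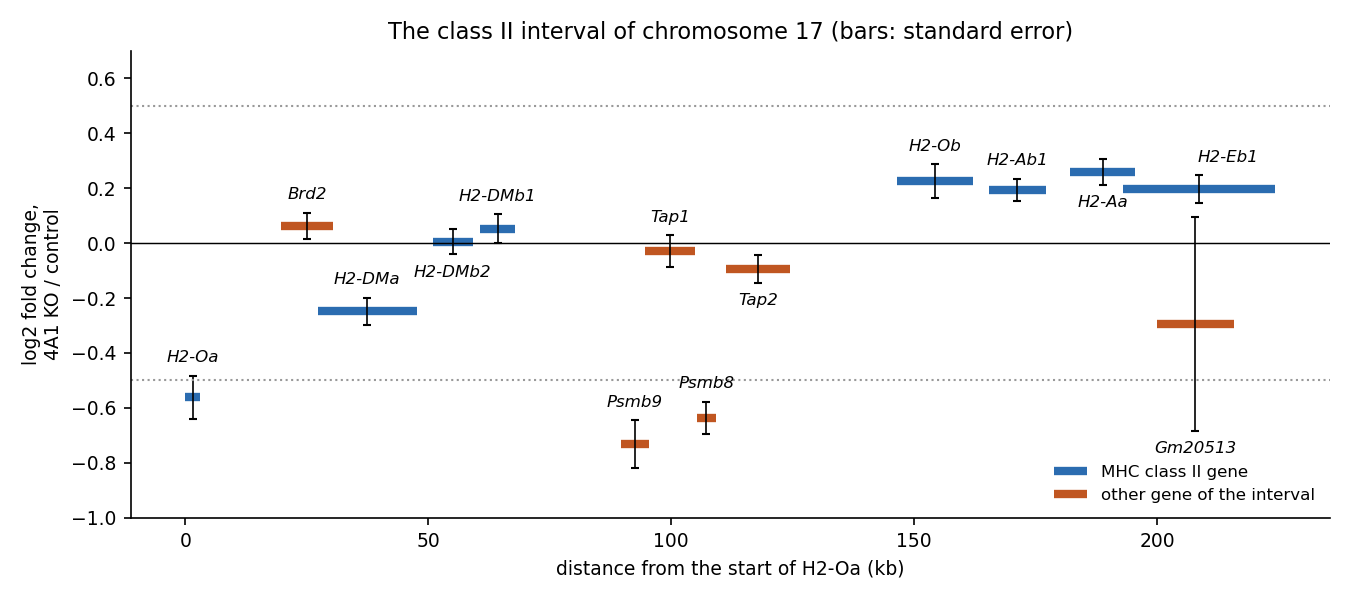
log2 fold change (4A1 KO against control, replicates 2 to 4) of the tested genes of the class II interval against their distance in kb from the start of H2-Oa, with a coloured bar over each gene's length and a standard error bar. H2-Oa, Psmb9 and Psmb8 lie below -0.5, and H2-Ob, H2-Ab1, H2-Aa and H2-Eb1 lie between 0.19 and 0.26.

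Of the factors that bind class II promoters, NF-Y subunit gene Nfya was lower and Rfx5 higher by the adjusted p alone. Of 7 genes, the RFX subunits Rfx5, Rfxank and Rfxap, the NF-Y subunits Nfya, Nfyb and Nfyc, and Creb1, 0 were called by edgeR or by DESeq2 and 3 had an unadjusted p under 0.05 (edgeR), with a median log2 fold change of 0.09 against 0.0066 over all genes tested. Over all genes 25.3% were called, and 53.0% passed the adjusted p alone, as did 2 of these 7. Nfya, which carries the CCAAT-contacting subunit, was lower, at 84.8, 104.97 and 111 CPM in control 2, 3 and 4 and 65.0, 80.4 and 89.3 CPM in 4A1 KO 2, 3 and 4 (log2 fold change -0.36, adjusted p = 0.000389, edgeR). Each 4A1 KO library was below the control library of its number. Rfx5 was at 59.8 to 64.1 CPM in control and 68.7 to 71.8 CPM in 4A1 KO replicates 2 to 4 (log2 fold change 0.17, adjusted p = 0.0223, edgeR), and passed in 6 of 13 fits. The other 5 had log2 fold changes from -0.06 to 0.21 and did not pass.

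Of 12 genes known to act on Ciita, 2 were called, 1 in each direction, and at an adjusted p alone 2 were higher and 5 lower, with a median log2 fold change of -0.15. These counts are near or below the shares over all genes, of which 25.3% were called and 53.0% passed the adjusted p alone. Bcl6, the germinal centre repressor, rose from 32.5, 18.04 and 24.4 CPM in control 2, 3 and 4 to 53.5, 39.003 and 42.3 CPM in 4A1 KO 2, 3 and 4, without overlap (log2 fold change 0.87, standard error 0.0852, adjusted p = 5.84e-05, edgeR). In TPM its 8 libraries did not overlap between the genotypes either, as in 35.6% of all genes. Prdm1, which encodes BLIMP1 and silences Ciita in plasma cells, was low throughout, at 5.39, 10.1 and 10.1 CPM in control 2, 3 and 4 and 3.14, 6.73 and 6.70 CPM in 4A1 KO 2, 3 and 4, and fell by 0.64 on the log2 scale (adjusted p = 0.00114, edgeR). In replicate 1 it was not lower, with 4.07 CPM in control and 4.75 CPM in 4A1 KO, and in all 8 libraries its log2 fold change was -0.45. Stat6, the transcription factor downstream of the IL4 receptor, had 229 to 267 CPM in control and 316 to 344 CPM in 4A1 KO replicates 2 to 4 (log2 fold change 0.43, adjusted p = 0.0001, edgeR). Irf2, Pax5 and Tcf3 were lower (-0.44, -0.23 and -0.14), of which PAX5 and E2A, the product of Tcf3, act in B cells and IRF2 in the interferon response. Spi1, Irf1, Irf4, Irf8 and Zbtb32 did not pass. Of the 5 plasmablast markers, against 13.7% of all genes called as decreased, 3 fell, Prdm1, Sdc1 (-1.22, adjusted p = 8.47e-05, edgeR) and Xbp1 (-0.94, adjusted p = 1.02e-05, edgeR). Irf4 and Jchain, the joining chain gene of secreted IgM and IgA, did not pass (0.21, adjusted p = 0.692, edgeR, for Jchain, which was lower in 4A1 KO replicates 1 and 2 and higher in 3 and 4). The 5 summed to 622 to 928 CPM in control and 549 to 690 CPM in 4A1 KO libraries.

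Among genes of the endosomal proteases that prepare CLIP and peptides, some were higher and others lower. Of 10 genes, 1 was called, and at an adjusted p alone 2 were higher and 6 lower, with a median log2 fold change of -0.20. Over all genes 25.3% were called, and 26.3% were higher and 26.7% lower by the adjusted p alone. Ctss, the cathepsin S gene, whose enzyme cuts the invariant chain in B cells, was higher, with 223, 178 and 156 CPM in control 2, 3 and 4 and 275, 209 and 189 CPM in 4A1 KO 2, 3 and 4 (log2 fold change 0.27, adjusted p = 0.00114, edgeR). Sppl2a, which removes the last membrane fragment of the invariant chain, was higher too (log2 fold change 0.32, adjusted p = 0.00135, edgeR). Ctsb, a general endosomal cysteine protease gene, fell from 110, 85.8 and 83.2 CPM in control 2, 3 and 4 to 65.6, 55.5 and 63.2 CPM in 4A1 KO 2, 3 and 4 (log2 fold change -0.59, adjusted p = 0.000168, edgeR). No 4A1 KO library reached a control library, as in TPM, where 35.6% of all genes did not overlap between the genotypes. The asparagine endopeptidase gene Lgmn (-0.36), the aspartic protease gene Ctsd (-0.35), the thiol reductase gene Ifi30 (-0.35), Ctsz (-0.20) and Ctsh (-0.20) were lower without reaching the fold threshold. Ctsl, at 1.71 to 4.62 CPM, and the protease inhibitor gene Cst3 did not pass.

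Of the class II pathway genes listed, the turnover gene Marchf1 had the largest difference in RNA, and the other turnover genes differed little or not detectably. Marchf1, which encodes MARCH1, had 434, 594 and 747 counts in control 2, 3 and 4 and 78, 51 and 170 counts in 4A1 KO 2, 3 and 4. In CPM these were 10.7, 14.3 and 17.1 against 2.02, 1.26 and 3.97, and replicate 1 had 9.39 CPM in control and 1.52 CPM in 4A1 KO. The highest 4A1 KO library lay below the lowest control library. Marchf1 fell by 2.60 on the log2 scale (standard error 0.222, 95% interval -3.10 to -2.10, adjusted p = 3.33e-05, edgeR), a 6.06-fold decrease, and the log2 fold change lay between -2.93 and -2.04 in all 13 fits of the counts. In TPM it had 7.87 ± 1.93 in control and 1.90 ± 0.654 in 4A1 KO cells (exact permutation test over 8 libraries, two-sided, p = 0.0286, the smallest that 4 against 4 allow). Any gene whose genotypes do not overlap in the 8 libraries gets this p, and 35.6% of 12996 genes did not overlap in TPM. Its relative Marchf8 was at 2.22 to 2.78 CPM in replicates 2 to 4, with a log2 fold change of 0.00 (95% interval -0.36 to 0.36, adjusted p = 0.993, edgeR). Cd83, which opposes MARCH1 at the surface, had 500 to 546 CPM in control and 442 to 485 CPM in 4A1 KO replicates 2 to 4 (log2 fold change -0.15, adjusted p = 0.0427, edgeR). It passed in 9 of 13 fits and was -0.08 without replicate 3 (adjusted p = 0.346, edgeR). These are RNA values, and neither MARCH1 protein nor surface class II was measured here.

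**Figure D5:**
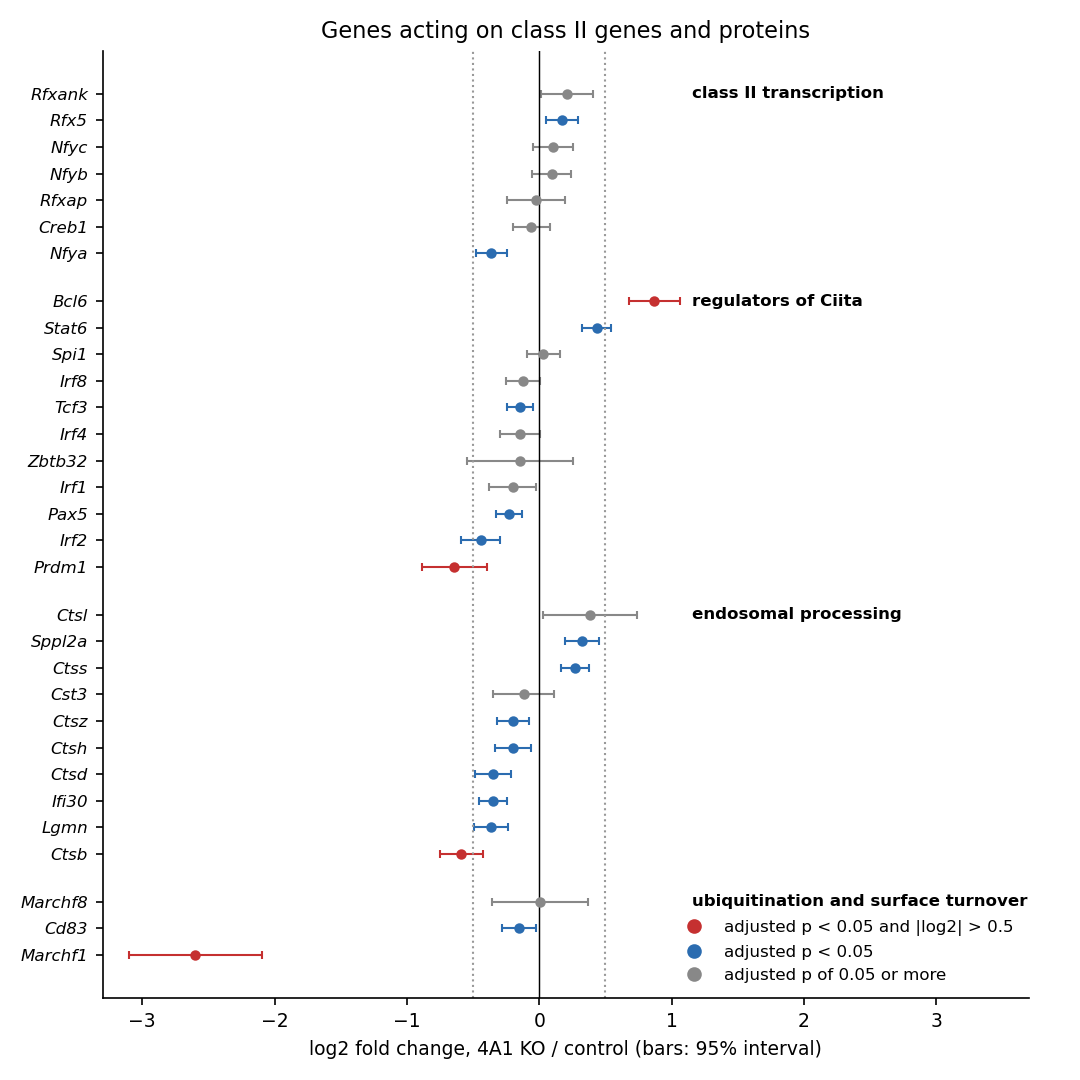
log2 fold change in 4A1 KO against control B cells (edgeR, replicates 2 to 4, bars are 95% intervals) of genes of 4 lists that act on class II genes or proteins, coloured by whether they passed both thresholds, the adjusted p alone or neither. Marchf1 lies at -2.60, Bcl6 at 0.87, Prdm1 at -0.64 and Ctsb at -0.59, and the other genes shown lie between -0.5 and 0.5.

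CD74 at the surface is also a receptor for the cytokine MIF and its homologue DDT. Mif had 238 to 262 CPM in control and 233 to 251 CPM in 4A1 KO replicates 2 to 4, a difference that did not pass (log2 fold change -0.06, adjusted p = 0.313, edgeR). Ddt fell from 44.1, 32.6 and 33.7 CPM in control 2, 3 and 4 to 19.95, 15.9 and 20.5 CPM in 4A1 KO 2, 3 and 4, without overlap (log2 fold change -0.96, standard error 0.0926, adjusted p = 5.31e-05, edgeR). In TPM the genotypes did not overlap in the 8 libraries either, as for 35.6% of all genes. The coreceptor genes Cd44 (0.07, adjusted p = 0.266, edgeR) and Cxcr4 (-0.20, adjusted p = 0.0814, edgeR) did not pass, and Cxcr2 had no counts. Cxcr4 passed in 3 of 13 fits, among them that of all 8 libraries (-0.27, adjusted p = 0.0149, edgeR), and ran from -0.29 without replicate 3 to -0.09 without replicate 4.

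Over the 8 libraries the genes most like Cd74 in log2 CPM, of 11831 genes averaging 1 CPM or more, were Sgf29, a subunit of a histone acetyltransferase complex (Pearson's r 0.995), H2-Ab1 (0.987), Fez2 (0.986), the kappa constant region gene Igkc (0.985) and H2-Aa (0.984). Those most like Ciita were Ift22 (0.967), Pde4a (0.961), Rsph3a (0.959), Pcca (0.959) and 5730480H06Rik (0.956), with no class II gene among them. Among the members, r with H2-Aa was 0.905 to 0.991 for H2-Ab1, H2-Eb1, H2-DMb1, H2-DMb2, H2-Ob and Cd74, 0.505 for H2-Oa, 0.349 for H2-DMa and 0.157 for Ciita. The points share batches and genotypes, and these values are descriptions.

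Feeder cell RNA was low. The 8 fibroblast markers summed to 8.73 to 48.7 CPM in control and 11.5 to 28.3 CPM in 4A1 KO libraries, with Postn at 0 in all. Col3a1, a collagen gene at 0.0233 to 0.940 CPM, passed both thresholds as decreased (log2 fold change -1.57, adjusted p = 0.0437, edgeR), with 25 counts in control 4 and 1 in 4A1 KO 4. It was 0.28 higher on the log2 scale in 4A1 KO 1 than in control 1, was at -0.91 in all 8 libraries (adjusted p = 0.201, edgeR) and was not called by DESeq2. The sum was highest in control 2. The 6 T cell markers summed to 14.5 to 24.5 CPM in control and 10.4 to 19.5 CPM in 4A1 KO libraries, nearly all of it Lck (log2 fold change -0.40, adjusted p = 0.00518, edgeR), with Trac not passing (-0.34, adjusted p = 0.35, edgeR) and Cd3e, Cd3d, Cd4 and Cd8a at 10 counts or fewer in every library. Of the 8 B cell markers, 4 genes of the antigen receptor and its signalling, Cd79b (-0.89), Cd22 (-0.76), Blk (-0.67) and Cd79a (-0.67), fell, against 13.7% of all genes called as decreased. Ebf1 (0.40, adjusted p = 0.000669, edgeR) and Fcer2a (0.30, adjusted p = 0.00116, edgeR) were higher, and Ms4a1 did not pass the test.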

How the data were processed

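RNA of 8 libraries of activated splenic B cells, 4 control and 4 4A1 KO, was analysed. The authors trimmed the reads with Trim Galore 0.6.6, mapped them to GRCm39 with HISAT2 2.1.0 and deposited raw counts from Seqmonk over merged isoforms, counted by strand. The deposited TPM were calculated by the authors with StringTie 2.1.1 from those alignments.

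Counts were fitted in R 4.3.3 with edgeR 4.0.16 (TMM, filterByExpr, quasi-likelihood test, two-sided) with batch, sex and genotype. With 6 libraries this equals a replicate block. TPM were fitted with limma 3.58.1 on log2(TPM + 1) for genes averaging 1 TPM or more. Such a difference understates that of low genes. DESeq2 1.42.0 was an alternative, as were other normalisations, filters and pseudocounts, glmTreat, no replicate block, all 8 libraries and leaving out each replicate. DESeq2 on all 8 libraries, the batch and sex differences and the GNAAC arrangement were added after seeing the data.

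Same-numbered libraries share batch and sex in the labels. Their deviations from the genotype means correlated at 0.488, 0.403 and 0.333, and those of other pairs at -0.336 to 0.00053. The study's methods take the B cells of each genotype from 4 mice. Depth was 31727557 to 43210858 counts per library.

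The members and lists were chosen with earlier results of these data known. Named are the 10 members, the called genes of each list or else the 3 with the smallest adjusted p, list genes with a textbook role, the tested genes of the class II interval, and the 5 genes most correlated with Cd74 and with Ciita. Some genes of the lists count in their totals but are not reported here by name. In simulated counts for the comparison of 6 libraries, edgeR recovered 184 of 200 changed genes among 14218, with 4 false calls. These numbers are not split by size of difference, and recovery at the sizes seen in the members was not tested.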

Additional observations from a re-analysis of the deposited data

Results flagged for a closer look

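In 106 groups of 4 libraries, the highest or lowest library was compared with its nearest neighbour, and the gap divided by the group's range was held against Dixon's 95% limit, which chance passes in about 1 of 20 groups, or 5.3 here. In 5 groups the limit was passed. Of these, 3 concern control 1, a library that the main comparison leaves out. Control 1 was highest for Rfxank (17.6 CPM, nearest 11.4, gap over range 0.941) and for Rfxap (17.9 CPM, nearest 14.9, gap over range 0.843), and lowest for Irf2 (42.8 CPM, nearest 49.8, gap over range 0.831). 4A1 KO 4 had the highest ratio of H2-Aa to H2-Ab1 in TPM (1.09, nearest 1.00, gap over range 0.942). Control 2 had the highest ratio of H2-Oa to H2-Ob in TPM (1.90, nearest 1.49, gap over range 0.927), and the other 3 control libraries still lay above every 4A1 KO library.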

How the results depend on the processing

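The 10 members kept their direction under every alternative run, except H2-DMb2. The number of called members fell from 1 to 0 with glmTreat, without the replicate block and without replicate 3 (leaving out 1 replicate gave 0 to 1). For H2-Oa the adjusted p was 0.391 with glmTreat and 0.162 without the block (edgeR), and the log2 fold change lay between -0.63 and -0.47 when a replicate was left out. In TPM the number of members past the threshold was 0 without the block (adjusted p = 0.176 for H2-Oa, limma). By the adjusted p alone, the 5 higher members were also lost without the block (0.313 to 0.505, edgeR), and H2-DMa was kept. Called regulators of Ciita numbered 1 in place of 2 with glmTreat, without the block, with all 8 libraries, and with DESeq2 on all 8 libraries, in each of which Prdm1 was the call lost. Called endosomal processing genes numbered 0 in place of 1 with glmTreat, which lost Ctsb (adjusted p = 0.22). glmTreat tests against the fold threshold itself. The cause of the other changes was not tested.

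Some genes that had not passed the test changed sign. H2-DMb2 was at 0.014 in TPM with all 8 libraries, and Marchf8 at -0.0012 with unshrunken DESeq2. When a replicate was left out, the log2 value ran from -0.021 to 0.050 for H2-DMb2 in counts, -0.026 to 0.034 for H2-DMb2 in TPM, -0.081 to 0.088 for Rfxap, -0.11 to 0.013 for Creb1, -0.29 to 0.12 for Zbtb32, -0.22 to 0.043 for Cst3, -0.060 to 0.11 for Marchf8 and -0.039 to 0.0032 for the log2 ratio of Cd74 to H2-Aa plus H2-Ab1 (main value -0.02). With 3 libraries a genotype, a permutation test cannot go below 0.1.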
